A study of Mus musculus with 4 samples.

Results

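Potassium channel genes outside the cardiac conduction set were the 89 protein-coding mouse genes whose symbol begins with Kcn, after Kcnq1, Kcnh2, Kcne1, Kcnj2 and Kcnj11 were left out, of 21887 protein-coding genes on chromosomes 1 to 19, X and Y. The rule uses the symbol alone and no measured value. The assay was bulk ATAC-seq, in which the transposase Tn5 inserts adapters where DNA is accessible, and the deposited data are lists of accessible peaks. Each library came from iMGT-Myh6-eGFP-MEF cells, a line of fibroblasts from mouse embryos that switches on Mef2c, Gata4 and Tbx5 (MGT) under doxycycline, the transcription factors used to turn fibroblasts into cardiomyocyte-like cells. The 2 siChst7 libraries came from cells transfected with siRNA against Chst7, a gene for a chondroitin sulfotransferase, and the 2 siControl libraries from cells transfected with control siRNA. All 4 were transfected the day before doxycycline was added at 1 μg/mL and were harvested on day 1 after it. Every group thus carried induced MGT, there was no library without it, and all cells were of 1 line. The labels call the replicates biological without saying whether they were separate cultures. The level of Chst7 RNA was not measured in the files used here, so the knockdown itself was not checked.

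Potassium channels let potassium leave the cell down its gradient and so set the resting potential and end action potentials. The family falls into pore subunits opened by voltage, by calcium or sodium, or without a gate that follows voltage, and into auxiliary subunits that change how pores open or reach the membrane. Fibroblasts are not excitable, but several family members are known in them, such as the calcium-activated channels Kcnma1 and Kcnn4 and the ATP-sensitive channel subunit Kcnj8.

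Peaks of the 4 libraries on chromosomes 1 to 19, X and Y were joined into 90239 regions wherever they overlapped by 1 bp or more, and a gene's window was its body with 20 kb on either side. The siChst7 libraries held 74402 and 66165 peaks, of which 365 and 308 lay in windows of the potassium channel genes, and the siControl libraries held 73902 and 75696 peaks, of which 367 and 380 did. The list of siChst7 replicate 2 was the shortest, and read totals are unknown from these files. Of the fibroblast marker genes, 8 of 10 had a region called in all 4 libraries within 1 kb of the start (not Col3a1 and Ddr2), as had 3 of 3 smooth muscle markers (Acta2, Myh11 and Tagln). The same held for 3 of 5 cardiomyocyte markers (Tnnt2, Myh6 and Nppa), for 1 of 4 neuronal markers (Syt1) and for 0 of 3 each of endothelium, immune cells, epithelium and skeletal muscle. Such a region was called at 54.2% of protein-coding genes in general, and the cardiomyocyte count was near that background.

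Most of the 89 genes had no called peak at their starts in either siRNA group. A start region, a region within 1 kb of the gene start, was called in all 4 libraries at 16 of the 89 genes (18%), against 54.2% of all protein-coding genes. For 22 of the 89 genes both gene ends stood in for the start. Such genes made up 3 of the 16, namely Kcnab3, Kcnh3 and Kcnv2, whose region may lie at the other end of the gene. Another 9 genes had a start region in 1 to 3 libraries, and 64 had none in any library. Some accessible region lay nearby more often. The window held a region called in all 4 libraries at 73 genes (82.0%), against 78.8% of all protein-coding genes, and held no region in any library at 9 genes, against 16.9% of all. The 2 shares for start regions were not compared by a test, since genes are not replicates. The gap was of similar size with a window of 2.5 kb (25 genes or 28.1%, against 58.5% of all) and for regions that cover the start itself (11 genes or 12.4%, against 47.5%).

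**Figure D1:**
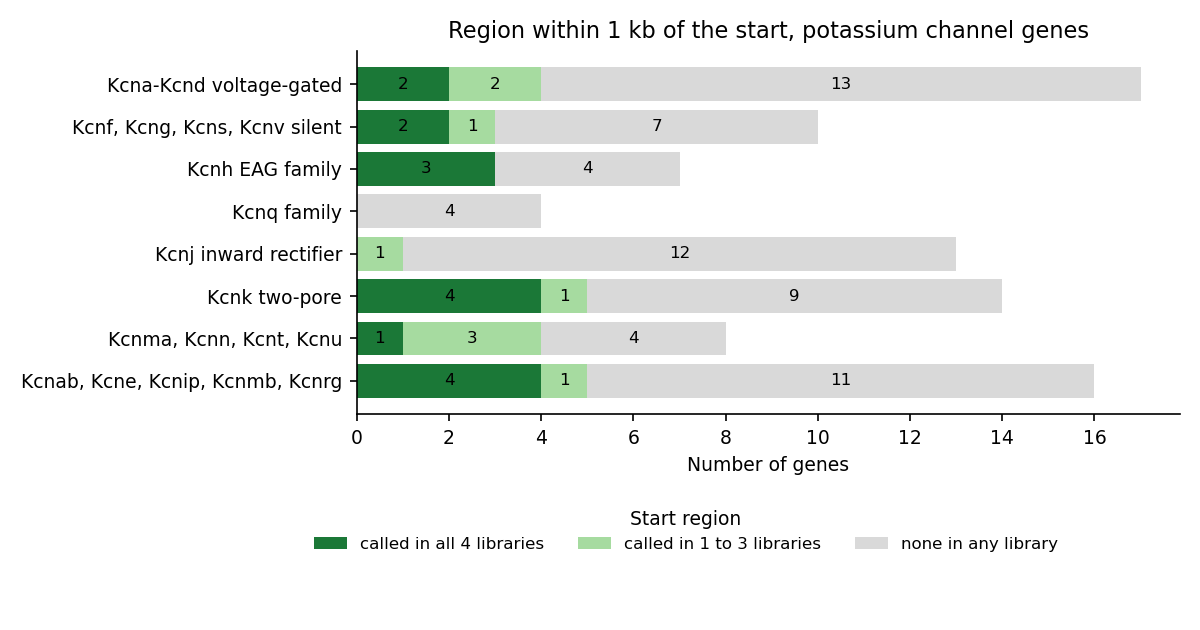
Number of potassium channel genes (x axis) in each role class (y axis) whose start region was called in all 4 libraries (dark green), in 1 to 3 libraries (light green) or in none (grey). Grey makes up most of nearly every bar, and the Kcnq and Kcnj classes have no dark green.

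The promoters that follow are from RefSeq, build GRCm38.p6, and run 5′ to 3′ from 250 bases before to 50 bases after the gene start, in lower case with each CpG dinucleotide in capitals. The first 4 are shown because they had a start region in all 4 libraries, a pair of them rich in CpG and a pair poor in it. Kcnab2, which encodes a cytosolic beta subunit of voltage-gated channels, had 25 CpG, and Kcnip3, which encodes a calcium-binding protein that joins Kcnd channels, had 28. Kcnk10, which encodes a mechanically and thermally gated leak channel, had 7, and Kcna7, which encodes a voltage-gated channel of muscle, had 4.
Kcnab2 promoter, chr4:152477500-152477799, minus strand: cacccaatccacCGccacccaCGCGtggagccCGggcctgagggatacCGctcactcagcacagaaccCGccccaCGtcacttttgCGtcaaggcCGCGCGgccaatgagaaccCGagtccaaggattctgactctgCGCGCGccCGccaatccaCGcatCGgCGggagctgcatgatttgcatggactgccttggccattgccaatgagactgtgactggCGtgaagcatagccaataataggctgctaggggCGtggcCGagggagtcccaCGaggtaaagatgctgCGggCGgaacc
Kcnip3 promoter, chr2:127482450-127482749, minus strand: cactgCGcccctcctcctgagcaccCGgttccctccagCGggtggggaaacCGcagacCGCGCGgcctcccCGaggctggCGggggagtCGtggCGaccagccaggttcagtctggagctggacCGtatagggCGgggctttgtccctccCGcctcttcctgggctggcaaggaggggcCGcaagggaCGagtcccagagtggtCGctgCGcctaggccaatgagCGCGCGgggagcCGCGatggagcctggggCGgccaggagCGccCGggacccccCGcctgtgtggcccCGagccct
Kcnk10 promoter, chr12:98578164-98578463, minus strand: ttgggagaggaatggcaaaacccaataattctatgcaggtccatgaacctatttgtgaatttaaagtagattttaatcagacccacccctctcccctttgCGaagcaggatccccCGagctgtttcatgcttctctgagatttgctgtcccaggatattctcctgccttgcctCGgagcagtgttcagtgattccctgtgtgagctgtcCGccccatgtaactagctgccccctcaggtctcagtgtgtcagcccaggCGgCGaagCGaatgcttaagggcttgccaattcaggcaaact
Kcna7 promoter, chr7:45405710-45406009, plus strand: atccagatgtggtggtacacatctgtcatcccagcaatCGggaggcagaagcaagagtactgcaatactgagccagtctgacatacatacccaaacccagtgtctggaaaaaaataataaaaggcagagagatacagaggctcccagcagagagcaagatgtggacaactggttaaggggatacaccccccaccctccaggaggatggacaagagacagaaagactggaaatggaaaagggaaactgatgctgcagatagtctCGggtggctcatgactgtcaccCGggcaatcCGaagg

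The next 4 are shown because no library had a peak within 1 kb of them, although 3 are rich in CpG. Kcnk2 (mechanically gated leak channel) had 33 CpG, Kcnma1 (large-conductance calcium-activated channel) had 36, and Kcnd2 (pore of the fast transient outward current) had 26. Kcnj8 (pore of the ATP-sensitive channel of vessels) had 9.
Kcnk2 promoter, chr1:189343304-189343603, minus strand: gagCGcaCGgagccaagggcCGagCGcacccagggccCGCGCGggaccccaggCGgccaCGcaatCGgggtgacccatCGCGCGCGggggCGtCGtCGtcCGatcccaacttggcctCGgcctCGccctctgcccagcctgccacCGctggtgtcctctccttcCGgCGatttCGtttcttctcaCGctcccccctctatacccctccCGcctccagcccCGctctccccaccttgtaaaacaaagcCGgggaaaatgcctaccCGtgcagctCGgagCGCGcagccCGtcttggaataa
Kcnma1 promoter, chr14:24004156-24004455, minus strand: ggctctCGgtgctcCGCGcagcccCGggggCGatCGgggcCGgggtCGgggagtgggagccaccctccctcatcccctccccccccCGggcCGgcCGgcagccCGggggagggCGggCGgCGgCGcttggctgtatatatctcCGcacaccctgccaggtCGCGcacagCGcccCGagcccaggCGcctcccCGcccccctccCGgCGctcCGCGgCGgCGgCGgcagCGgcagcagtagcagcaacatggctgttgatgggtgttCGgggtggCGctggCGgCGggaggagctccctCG
Kcnj8 promoter, chr6:142571565-142571864, minus strand: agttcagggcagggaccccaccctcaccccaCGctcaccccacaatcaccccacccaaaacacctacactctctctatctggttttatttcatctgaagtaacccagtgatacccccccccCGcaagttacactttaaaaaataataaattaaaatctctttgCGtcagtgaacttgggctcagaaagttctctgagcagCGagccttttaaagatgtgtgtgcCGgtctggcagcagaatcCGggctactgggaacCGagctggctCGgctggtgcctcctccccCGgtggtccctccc
Kcnd2 promoter, chr6:21215096-21215395, plus strand: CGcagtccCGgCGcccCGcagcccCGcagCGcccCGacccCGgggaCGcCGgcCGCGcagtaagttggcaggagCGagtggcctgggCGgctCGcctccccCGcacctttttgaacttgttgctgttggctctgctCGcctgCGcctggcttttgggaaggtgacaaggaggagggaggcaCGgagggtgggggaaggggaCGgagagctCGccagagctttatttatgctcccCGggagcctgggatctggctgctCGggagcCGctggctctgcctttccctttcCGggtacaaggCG

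High CpG content, which usually goes with an open promoter in mouse cells, did not go with one at most of these genes. Of the 67 genes in the RefSeq promoter table, with 92 promoters, 26 had a promoter with at least 20 CpG in its 300 bases. A start region in all 4 libraries was called at 7 of those 26 (26.9%), against 5804 of 6803 such genes among all protein-coding genes (85.3%). The 7 were Kcna4, Kcnab2, Kcng3, Kcnh1, Kcnh4, Kcnip3 and Kcnk12. Kcnj4 had one in 2 libraries, and 18 had none in any, among them Kcnmb4 with 48 CpG and Kcnd2 with 26. Counted by promoter, the share was 7 of 27 (25.9%) at 20 or more CpG, 1 of 15 (6.67%) at 10 to 19 and 5 of 50 (10.0%) under 10. Over all protein-coding promoters the shares were 85.4%, 71.5% and 17.7% in the same order. The median promoter held 9 CpG among the potassium channel genes and 13 among all.

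**Figure D2:**
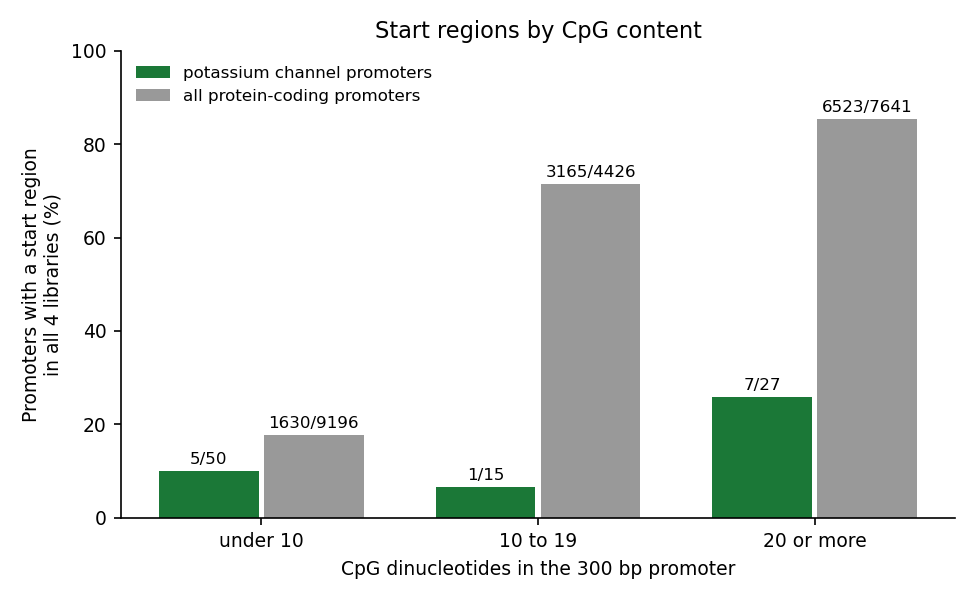
Share of promoters with a start region called in all 4 libraries (y axis, percent) by the number of CpG dinucleotides in the 300 bp promoter (x axis), for potassium channel genes (green) and all protein-coding genes (grey), with the counts above the bars. The green bars stay at or under 25.9%, whereas the grey bars reach 85.4%.

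Short sequence motifs were searched on both strands of these promoters. The SP/KLF motif GGGCGG occurred in 10 of the 13 promoter-table genes with a start region in all 4 libraries (76.9%). It occurred in 66.4% of the protein-coding promoters with such a region. Among all potassium channel promoters the share was 46.7%, close to the 46.2% of all protein-coding promoters. Over all promoters in the table it was 35.7%. TEAD GGAATG occurred in 4 of the 13 (30.8%; Kcnk10, Kcnk13, Kcnk12 and Kcnn4), against 11.6% of protein-coding promoters with a start region and 14.7% of all promoters. T-box GGTGTG occurred in 4 of 13 (30.8%), against 16.8% and 19% in the same order. The AP-1 motif TGANTCA, the GATA-factor site AGATAA and the MEF2 consensus occurred in 0 of the 13. They occurred in 5.0%, 5.48% and 2.99% of protein-coding promoters with a start region, and in 7.81%, 11.2% and 3.69% of all promoters. These matches describe the letters only.

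The 16 genes with a start region in all 4 libraries held 18 such regions, and their median strength was lower than that of start regions in general. Strength is given by the −log10 q of the peak, or by its fold enrichment over local background, both the authors' values for each peak, which describe and rank peaks within a list. The median −log10 q of the 18 was 38.9 and 34.8 in the siChst7 libraries and 38.9 and 40.3 in the siControl libraries. Over the 12215 start regions of all protein-coding genes it was 95.0 and 74.6 in the siChst7 libraries and 100 and 101 in the siControl libraries. The range among the 18 was wide, so the genes are given by role.

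**Figure D3:**
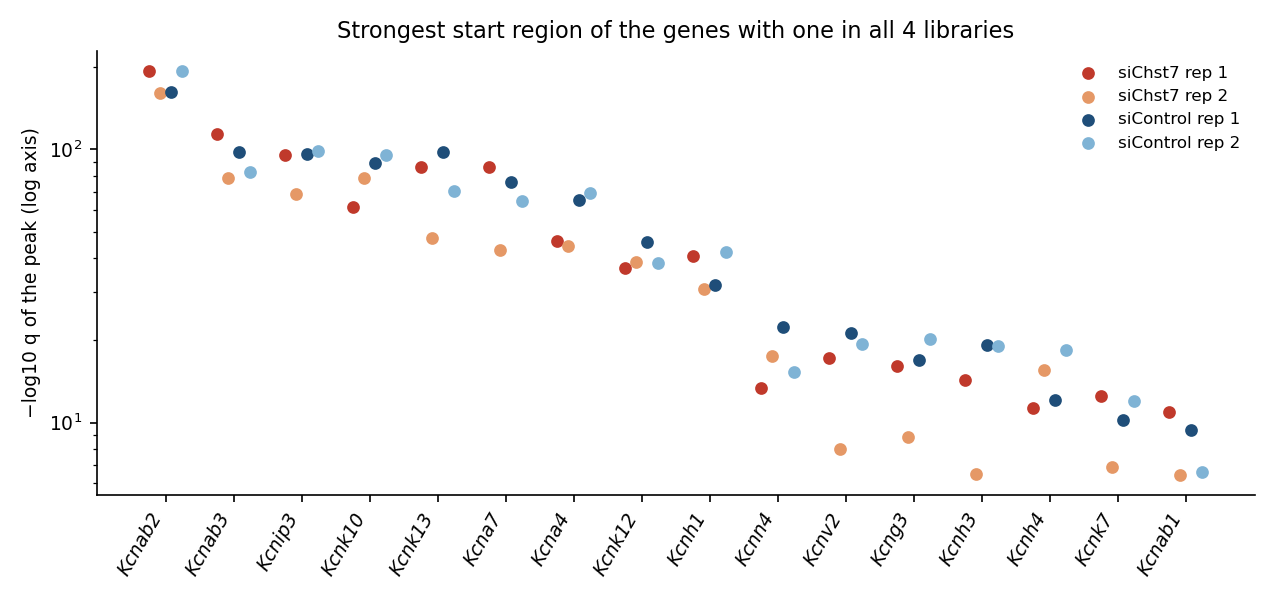
−log10 q of the strongest start region (y axis, log axis) in each library, for the 16 genes (x axis) with one in all 4 libraries, with siChst7 points left of siControl points. Kcnab2 stands highest with 194 and 161 in siChst7 libraries and 162 and 194 in siControl libraries. The groups overlap except at Kcnip3, Kcnk10, Kcna4, Kcnv2, Kcng3 and Kcnh3, where both siChst7 points are lower. By percentile within each library, the groups also overlap at Kcnip3 and Kcnk10. Over start regions of all protein-coding genes the medians were 95 and 74.6 in siChst7 libraries and 100 and 101 in siControl libraries. The share of all start regions without overlap was not computed. By rank of −log10 q, 3 of the 18 start regions were higher and 4 lower in both siChst7 libraries. Each direction held 20.2% of all regions called in all 4 libraries. For Kcnab3, Kcnh3 and Kcnv2 either gene end stood in for the start.

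Among the 17 voltage-gated pore genes (Kcna to Kcnd), 2 had a start region in all 4 libraries and 3 had no region at all. At Kcna7, the −log10 q at chr7:45405138-45405777 was 86.3 and 42.9 in siChst7 libraries and 76.3 and 64.9 in siControl libraries, so the groups overlapped. Kcna4, which encodes a rapidly inactivating channel, had a region over its start at chr2:107290183-107291503 with a −log10 q of 46.3 and 44.4 in siChst7 libraries and 65.4 and 69.2 in siControl libraries. Both siChst7 values lay below both siControl values there, also as a rank, as did 20.2% of all regions called in all 4 by rank. Kcnd2 had no region in any library across its 514 kb, and the nearest region called in all 4 lay 580 kb from its start. Kcnd3, its partner in the cardiac transient outward current, had no start region but 1 region inside the gene at chr3:105521141-105521759, with a −log10 q of 54.5 and 31.7 in siChst7 libraries and 40.7 and 40.2 in siControl libraries. Kcna5, the atrial ultrarapid channel, had 3 regions in all 4 libraries, all outside the gene and the nearest 8.94 kb from its start. Kcna3, a channel of T cells, and Kcnc2, a channel of fast-firing neurons, had no region in any library.

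Silent modifier genes (Kcnf, Kcng, Kcns and Kcnv) encode subunits that carry no current alone and alter Kcnb channels. Of 10, Kcng3 and Kcnv2 had a start region in all 4 libraries, both weak. The strand of Kcnv2 was not given, and its region lay 0.679 kb outside a gene end that may or may not be its start. The −log10 q of the Kcng3 region was 16.1 and 8.87 in siChst7 libraries and 17.0 and 20.2 in siControl libraries. That of Kcnv2 was 17.2 and 8.0 in siChst7 libraries and 21.2 and 19.5 in siControl libraries. At both genes each siChst7 value was lower than each siControl value, also as a rank. Of all regions called in all 4 libraries, 20.2% ranked lower in both siChst7 libraries. The lowest value at both genes was in siChst7 replicate 2. Its median over all such regions was also the lowest, 28.6 against 37.0 to 37.7. By rank of fold enrichment, Kcnv2 was lower in both siChst7 libraries and Kcng3 was not. Kcns3 and Kcnv1 had no region in any library.

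All 7 EAG genes (Kcnh, named for the fly channel ether-a-go-go) had a region in all 4 libraries in their window, and 3 had one at the start. Kcnh1 had a region over its start at chr1:192190406-192190809, with a −log10 q of 40.9 and 30.9 in siChst7 libraries and 31.9 and 42.0 in siControl libraries. The start regions of Kcnh4 and Kcnh3 were weaker, between 4.44 and 19.2 over all libraries. The strand of Kcnh3 was not given, so the gene end at which its regions lie may or may not be its start. None of the 4 Kcnq genes, which encode slow voltage-gated channels of neurons and vessels, had a start region in any library. Their 11 regions in all 4 libraries had the lowest class median of −log10 q in each library, 18.3 and 14.4 in siChst7 libraries and 23.3 and 19.2 in siControl libraries. The corresponding medians over the 258 regions of all 89 genes were 32.9 and 24.6 in siChst7 libraries and 32.0 and 31.4 in siControl libraries.

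None of the 13 inward rectifier genes (Kcnj), which hold cells near the potassium potential, had a start region in all 4 libraries. Of their 53 regions, 38 were called in all 4 (71.7%), against 56% of the regions of all 89 genes and 62% of all regions. Kcnj8 had a region inside the gene, 3.52 kb from its start, at chr6:142567190-142568097, with a −log10 q of 21.1 and 17.9 in siChst7 libraries and 19.1 and 24.6 in siControl libraries. The groups overlapped there, and its promoter printed above had no peak. Kcnj5 and Kcnj3 encode the acetylcholine-activated channel of the atrium. Kcnj5 had 4 regions in all 4 libraries, the nearest 4.93 kb from its start. Kcnj3 had a single one, 81.3 kb inside, with a −log10 q of 17.2 and 13.3 in siChst7 libraries and 14.5 and 8.77 in siControl libraries. Kcnj12, a classical inward rectifier of muscle, had 3, and Kcnj13 had no region in any library.

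The 14 tandem-pore genes (Kcnk) encode leak channels, and 4 had a start region in all 4 libraries. At Kcnk10 the −log10 q at chr12:98577858-98578351 was 61.4 and 78.3 in siChst7 libraries and 89.5 and 95.2 in siControl libraries. The fold enrichment of the same region was 14.3 and 19.4 in siChst7 libraries and 19 and 19.6 in siControl libraries. Both siChst7 libraries were lower by −log10 q, whereas the fold enrichments overlapped, and so did the percentile by −log10 q. The Kcnk13 region, at a halothane-inhibited channel gene, had a −log10 q of 86.5 and 47.5 in siChst7 libraries and 97.8 and 70.2 in siControl libraries. Kcnk12 ranged from 36.9 to 45.9 and Kcnk7 from 6.89 to 12.5 over the 4 libraries. Kcnk2 had no peak at its promoter and 2 regions in all 4 libraries inside the gene. The stronger, at chr1:189214807-189215926 and 127 kb from the start, had a −log10 q of 119 and 96.6 in siChst7 libraries and 143 and 112 in siControl libraries. Kcnk3, an acid-sensitive leak channel, had 9 regions in all 4 libraries without a start region in all 4. Kcnk6 had 4, of which 2 were at ends of other genes, and Kcnk1 had a single region that was not called in every library.

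Of 8 genes for channels opened by calcium, sodium or pH (Kcnma, Kcnn, Kcnt and Kcnu), Kcnn4 alone had a start region in all 4 libraries. Kcnn4 encodes the intermediate-conductance calcium-activated channel, and the −log10 q of its start region was 13.4 and 17.5 in siChst7 libraries and 22.5 and 15.3 in siControl libraries. A stronger region outside the gene at chr7:24387152-24387996, 16.9 kb from the start, had 188 and 159 in siChst7 libraries and 179 and 195 in siControl libraries. The strongest by mean, at chr7:24399269-24400364 over Smg9, had 168 and 146 in siChst7 libraries and 245 and 204 in siControl libraries. By both measures it ranked lower in both siChst7 libraries, as did 15.3% of all regions called in all 4. Kcnma1 had 7 regions in all 4 libraries, all inside the gene and at least 126 kb from its start. The strongest, at chr14:23400951-23401526, had a −log10 q of 45.9 and 34.8 in siChst7 libraries and 31.0 and 49.6 in siControl libraries. Kcnn3, a small-conductance channel gene, had 7 regions in all 4 libraries, of which 5 were inside, and Kcnn2 had none in any library across 417 kb. The sodium-activated channel gene Kcnt1 had a region at chr2:25913965-25914790 inside the gene with 263 and 197 in siChst7 libraries and 267 and 260 in siControl libraries.

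The 16 auxiliary and regulator genes included the strongest start regions. All 3 Kcnab genes had one in all 4 libraries (for Kcnab3 at either gene end), against 1 of 4 Kcnip genes, 0 of 4 Kcne genes, 0 of 4 Kcnmb genes and 0 of 1 Kcnrg gene. At Kcnab2, whose promoter region also lies at an end of Nphp4, the −log10 q at chr4:152477310-152478525 was 194 and 161 in siChst7 libraries and 162 and 194 in siControl libraries. The Kcnab3 region at chr11:69325712-69326566 also lies at an end of Trappc1, and the strand of Kcnab3 was not given, so that end may or may not be its start. It had 114 and 78.3 in siChst7 libraries and 97.5 and 82.7 in siControl libraries. Kcnab1 had 10.9 and 6.44 in siChst7 libraries and 9.39 and 6.58 in siControl libraries. Kcnip3 had 95.1 and 68.7 in siChst7 libraries and 96.4 and 98.8 in siControl libraries. Kcnip2, the main partner of Kcnd channels in ventricle, had 2 regions inside the gene and no start region. Kcnab1 with 11 and Kcnip1 with 10 had the most regions in all 4 libraries of the 89 genes. Kcnk3 followed with 9, then Kcnk7, Kcnma1 and Kcnn3 with 7 each and Kcnh4, Kcnip3, Kcnj4, Kcnj6, Kcnk4 and Kcnn4 with 6 each. Of these regions, 5 at Kcnk4, 3 at Kcnk7 and 3 at Kcnh4 lay at ends of other genes. The number was 2 at Kcnj4, 1 at Kcnab1 and 0 at the remaining genes of this list. The smooth muscle calcium-activated channel subunit Kcnmb1 and Kcne4, a suppressor of voltage-gated channels, had no region in any library. Kcnmb4, the neuronal counterpart of Kcnmb1, had 5 regions of which none was called in all 4. Kcne2 had 4 and Kcne3 had 2 regions in all 4 libraries, all outside the genes.

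**Figure D4:**
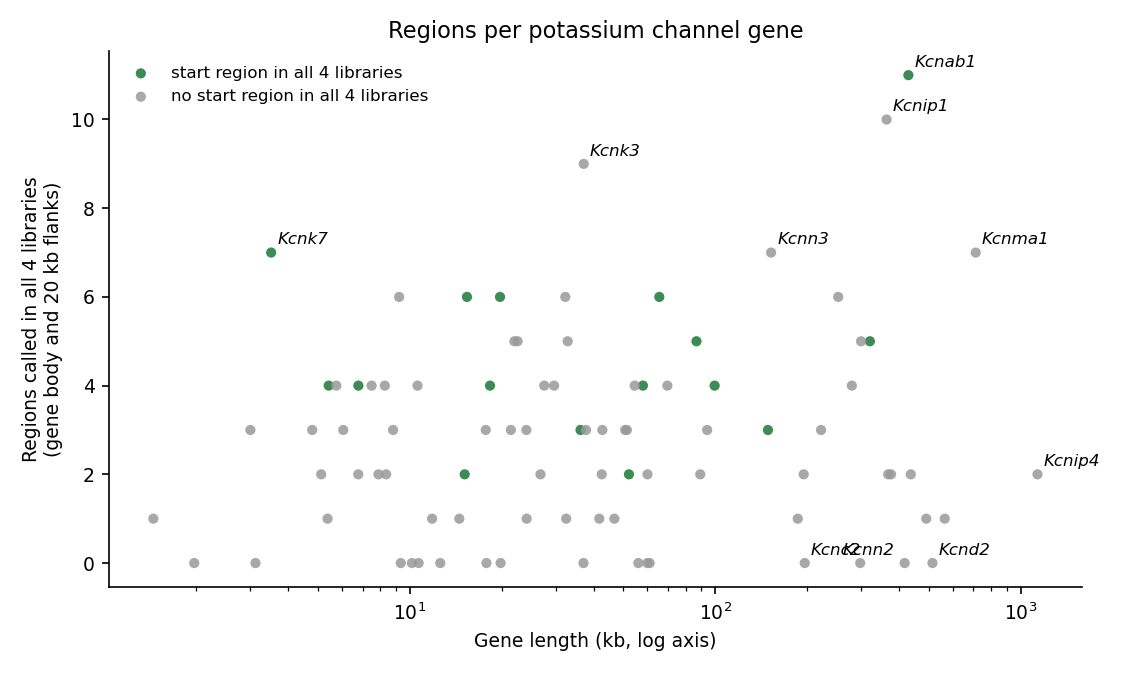
Regions called in all 4 libraries in the gene window (y axis) against gene length (x axis, kb, log axis) for each of the 89 genes, with genes that have a start region in all 4 libraries in green and the others in grey. Kcnab1 and Kcnip1 have 11 and 10 regions, whereas Kcnd2 and Kcnn2, of similar length, have none.

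Regions were sparser in these windows than over genes at large. The windows covered 13.8 Mb and held 18.7 regions called in all 4 libraries per Mb, against 31.5 per Mb over the windows of all protein-coding genes. The median gene was 36.2 kb long, against 17.2 kb for all. Of the 258 regions in all 4 libraries, 123 lay inside one of the genes and 40 within 1 kb of an end of another gene. Of the 12 with the highest mean −log10 q, 11 were at ends of other genes, and the remaining one was the Kcnt1 region given above. Of the 50 highest, 26 were at ends of other genes and 13 inside one of the 89 genes. The median −log10 q at ends of other genes was 134 and 93.0 in siChst7 libraries and 132 and 139 in siControl libraries. Inside the potassium channel genes, away from starts and other ends, it was 26.8 and 20.7 in siChst7 libraries and 27.2 and 25.5 in siControl libraries. The same shares over strong regions of all genes were not computed.

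Related genes outside the 89 differed among themselves. Of the 5 cardiac conduction genes left out, Kcnh2, Kcnj11 and Kcnj2 had a start region in all 4 libraries, and Kcnq1 and Kcne1 did not. Of 10 genes for proteins that partner potassium channels, Akap9 alone had one. Abcc8, Abcc9, Dpp6, Dpp10, Amigo1, Lrrc26, Lrrc38, Lrrc52 and Lrrc55 did not.

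The comparison of siChst7 with siControl asked how the calls and ranks of potassium channel regions differed between the siRNA groups. Regions of the 89 genes held 0.491% and 0.466% of the peaks in siChst7 libraries and 0.497% and 0.503% in siControl libraries. The mean was 0.478% ± 0.0178 in siChst7 and 0.4998% ± 0.00386 in siControl (SD, n = 2 each). Both siChst7 libraries were lower, and the difference of -0.0213 percentage points gave p = 0.3333 by a two-sided exact permutation test, the smallest p that 2 against 2 allows.

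Regions called in both siChst7 and neither siControl library numbered 6 of 461 (1.30%), against 1.24% of all regions. They lay at 5 genes (5.62%), against 5.27% of all protein-coding genes. Regions called in both siControl and neither siChst7 library numbered 19 (4.12%), against 2.84% of all regions, at 18 genes (20.2%), against 12.1% of all genes. The balance moved with the libraries used. Without siChst7 replicate 2, whose list was the shortest, 33 regions were siChst7-specific (7.33%, against 6.53% of all regions) and 25 were siControl-specific (5.56%, against 4.56%), so the side with more regions turned round, as it did over all regions. Without siChst7 replicate 1 the counts were 18 (4.13%, against 3.55%) and 56 (12.8%, against 8.6%). Without siControl replicate 1 they were 12 (2.75%, against 3.05%) and 51 (11.7%, against 9.03%). Without siControl replicate 2 they were 15 (3.48%, against 3.23%) and 45 (10.4%, against 7.89%). The excess of siControl-specific regions in these 3 settings was thus also present over all regions. When every list was trimmed to the same length, 9 were siChst7-specific (2.24%, against 1.96%) and 12 were siControl-specific (2.99%, against 2.05%).

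The siChst7-specific regions were at Kcna1, Kcnn1, Kcnk10, Kcnk13 and Kcnd1. Kcna1, an axonal voltage-gated channel gene, had one over a gene end at chr6:126645628-126645919, with a −log10 q of 10.9 and 5.00 in the siChst7 libraries and no peak in siControl libraries. Kcnn1, a small-conductance calcium-activated channel gene, had 2. The one inside the gene, at chr8:70846257-70846982, had 8.33 and 11.5 in the siChst7 libraries, and the other, at chr8:70869547-70869786 within Ccdc124, had 41.4 and 32.0. Both Kcnn1 regions were also kept with a −log10 q of at least 5, at least 200 bp and lists of equal length, as no other siChst7-specific region was. The regions at Kcnk13 and Kcnd1 lay within the neighbouring genes Tdp1 and Otud5, and that of Kcnk10 lay inside it at 5.47 and 5.17.

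The siControl-specific regions were at Kcnt1 (2 regions), Kcns1, Kcna2, Kcnc4, Kcnk3, Kcnn4, Kcnc1, Kcnj1, Kcnmb4, Kcnj12, Kcnh4, Kcnk16, Kcnrg, Kcnk9, Kcnh3, Kcnj6, Kcnk12 and Kcnd1. The strongest by mean was at Kcnj1, the renal secretory channel gene, inside the gene at chr9:32388064-32388430, with 45.7 and 21.8 in the siControl libraries and no peak in siChst7 libraries. Kcnk9, an acid-sensitive leak channel gene, had one 19.9 kb outside the gene at chr15:72568511-72568839 with 24.8 and 31.8. Kcnh4 had one at 26.6 and 20.2 that lay in Rab5c. Kcnn4 had one at 13.9 and 21.2, and Kcnc1 one at 13.8 and 17.3. At 4 of the 19 a region called in all 4 libraries lay within 1 kb, as at Kcnt1, where it was 288 bp away. The same held at 0 of the 6 siChst7-specific regions. These shares were not computed over all group-specific regions, and counts this small cannot compare the groups. The median −log10 q was 7.74 for siChst7-specific and 7.05 for siControl-specific regions, close to the 6.52 and 7.7 of all such regions in the genome. After 3 filters (−log10 q of at least 5, at least 200 bp and lists of equal length), 2 and 7 remained. The 7 were at Kcnt1, Kcna2, Kcnk3, Kcnc1, Kcnj1, Kcnh4 and Kcnrg. The Kcnrg region, at chr14:61606950-61607264, lay 0.193 kb from the gene start and also over Trim13, with 9.19 and 7.22 in the siControl libraries. A stricter −log10 q of at least 10, taken alone, kept 1 of the 6 and 5 of the 19. Of the 7, only those at Kcnc1, Kcnj1 and Kcnh4 also passed it. The same shares over all group-specific regions were not computed.

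Among the 258 regions present in every library, ranks within the 55924 regions called in all 4 were compared. By −log10 q, 44 ranked higher in both siChst7 than in both siControl libraries (17.1%), against 20.2% of all such regions. A further 65 ranked lower in both siChst7 libraries (25.2%), against 20.2% of all. By fold enrichment, 43 ranked higher (16.7%), against 19.5% of all, and 60 lower (23.3%), against 18.4%. Both measures were higher at 30 of the 258 regions, against 15.6% of all such regions, and lower at 53 of the 258, against 15.3%. Among start regions, those of Kcnab2 and both of Kcnab3 ranked higher by −log10 q in both siChst7 libraries, and those of Kcna4, Kcng3 and Kcnv2 and one of Kcnh3 ranked lower. With 2 libraries a group no single region could be tested, and the shares were not tested against those of all regions.

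**Figure D5:**
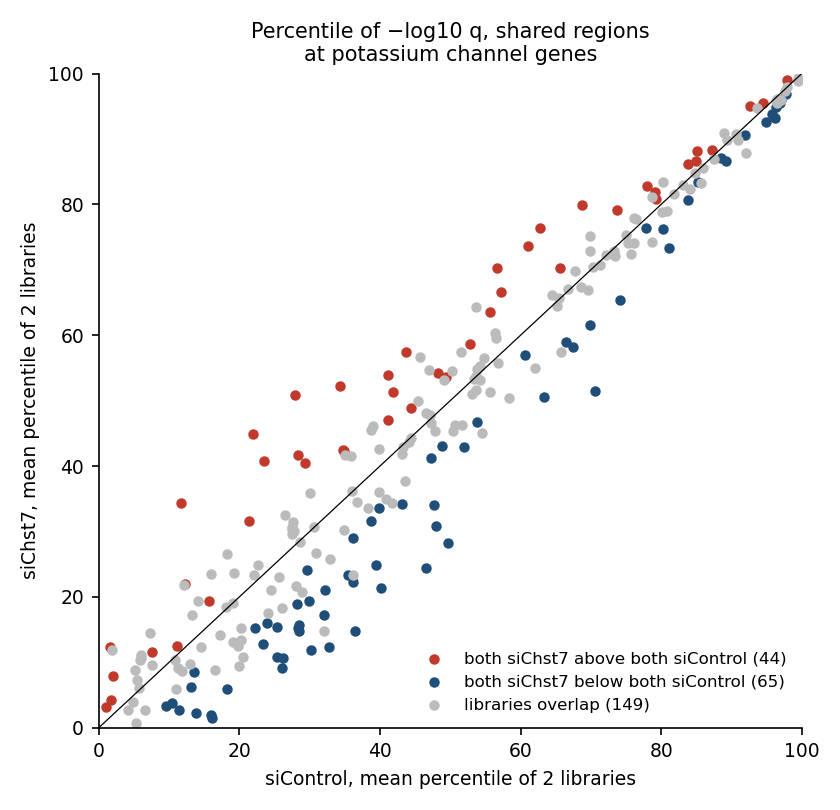
Mean percentile of −log10 q among all regions called in all 4 libraries, in siChst7 (y axis) against siControl (x axis), for the 258 regions of the potassium channel genes. Red points (44) ranked higher in both siChst7 libraries, blue points (65) lower, and grey points (149) overlapped, with most points near the diagonal.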

How the data were processed

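Peak lists of 4 ATAC-seq libraries (2 siChst7, 2 siControl) were analysed. Bowtie, SAMtools, HOMER, MACS3, bedtools and the build mm10 are listed, with neither version nor role, in the submitters' processing notes. How reads were filtered, deduplicated or shifted for Tn5 is not given in the sources used. The deposited lists give, for each peak of 1 library, the fold enrichment (a ratio to local background), the −log10 p and −log10 q of the summit, a score of 10 times −log10 q and the summit offset. The lowest deposited −log10 q was 2.00 to 2.02 in every library. The authors' fold, score and −log10 values were used only to describe, rank or filter peaks.

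Peaks on chromosomes 1 to 19, X and Y were merged where they shared 1 bp, and 62 to 77 peaks per library elsewhere were left out. Gene positions and promoters came from RefSeq tables of GRCm38.p6 (the assembly of mm10), without exons. Of the 89 genes, 67 matched the promoter table, and for the other 22 both gene ends served as starts. The 4 long non-coding Kcn genes were not members. Shares were set beside those of all protein-coding genes or regions without a test. The share of peaks was compared by a two-sided exact permutation test (scipy 1.17.1, pandas 2.3.3, numpy 2.4.6). No read counts were given, so no count model was used, depth is unknown and no interval is given. Merging and group-specific calls were tested on simulated peaks. Alternatives covered the flank, the start window, neighbouring gene ends, −log10 q, width, list length, summit windows, rank by fold and each library left out.

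Genes named in the text were those with a group-specific region, the 2 strongest start regions per subfamily, the 10 genes with most regions in all 4 libraries, genes without a region and genes with textbook roles in fibroblasts, smooth muscle or heart. The rule for the members uses symbols and no measured value, but it and the lists were chosen with earlier results of these data known.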

Additional observations from a re-analysis of the deposited data

How the results depend on the processing

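The side with more group-specific regions turned round in 1 alternative, with 33 siChst7-specific and 25 siControl-specific regions without siChst7 replicate 2, against 6 and 19. Genes with a region in all 4 libraries numbered 67 to 81, against 73. Genes with a start region numbered 11 to 16 under all alternatives except the 2.5 kb window, which gave 25. A further 2 alternatives were chosen after seeing the data: without start regions at ends of other genes the number was 15, and among promoter-table genes alone it was 13. The siChst7-specific count of 6 became 12 with 50 kb flanks (1.57% of the regions there, against 1.24% of all regions), 2 at a −log10 q of at least 10 (0.637%, against 1.0%), 3 at a width of at least 200 bp (0.68%, against 1.36%), and 12 to 33 with 1 library left out. The siControl-specific count of 19 became 31 with 50 kb flanks (4.07%, against 2.84%), 12 at a −log10 q of at least 10 (3.82%, against 2.69%), 12 with lists of equal length (2.99%, against 2.05%) and 25 to 56 with 1 library left out. Regions ranked higher in both siChst7 libraries (44) numbered 27 with 5 kb flanks, 81 with 50 kb flanks and 74 to 96 with 1 library left out. Regions ranked lower (65) numbered 34 with 5 kb flanks, 106 with 50 kb flanks and 101 to 118 with 1 library left out. Wider flanks hold more regions, and leaving out a library asks less of each call. For the ranked counts no shares were computed under these settings, so they cannot be set against all regions. The siChst7 minus siControl share of peaks stayed negative, from -0.0339 to -0.00874 percentage points with 1 library left out and -0.00982 at a −log10 q of at least 5. With replicate number as a block it was -0.0213 with an exact permutation p of 0.5, the smallest that block allows. Same-numbered libraries did not deviate together (r = 0.0121 across regions), so the numbers were not taken as pairs. With lists of peaks and 2 libraries a group, a weak region near the calling threshold cannot be told from one that was missed, and absence of a call is not absence of accessibility.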
